A study of Mus musculus with 4 samples.

Results

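A set of 10 genes known from T cells and natural killer (NK) cells was measured in flow-sorted cells of mouse periosteum, the sheath on the outer surface of bone. They are Gzma, Gzmb, Prf1, Nkg7, Klrd1, Ncr1, Cd7, Cd3e, Cd4 and Ccl5. All 10 members were found by name, among 14939 genes listed for an ACE sort and 14943 genes listed for a CD74 sort. They were chosen because their ratios between sorted fractions were already known from these data, so their levels and ratios are given as a description, with no test. The ACE-positive and ACE-negative groups were CD45+ Cx3cr1+ cells with and without ACE, the angiotensin-converting enzyme, at their surface. The CD74-positive and CD74-negative groups were CD45+ Cx3cr1+ cells with and without CD74, the chaperone of MHC class II molecules also called the invariant chain. All 4 groups came from wild-type male C57BL/6 mice at postnatal day 28, with no treatment named. The labels call the cells resident macrophages of the periosteum. Each group holds 1 RNA-seq library, and the labels give no number of animals per library. With 1 library per group, no difference between groups has a replicate check.

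NK cells and cytotoxic T cells kill by releasing granules. Perforin opens the membrane of the target cell, and granzymes, which are serine proteases, enter and start cell death. NK cells read their targets through lectin-like and immunoglobulin-like receptors, while T cells use the T cell receptor, whose signal is carried by the CD3 chains. CD4 is best known from helper T cells, but monocytes and macrophages can also carry it. CCL5 is a chemokine made by activated T and NK cells and also by macrophages.

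Promoter sequences are shown for the granule genes among the members, since these encode parts of one killing machinery and their values open the results. RefSeq promoter windows of GRCm38.p6, from 250 bases before to 50 bases after the annotated start, were found for 6 of the 10 members. They were Gzma, Gzmb, Prf1, Nkg7, Ncr1 and Cd3e. The windows lie at chr13:113100932-113101231 on the minus strand for Gzma, chr14:56262285-56262584 on the minus strand for Gzmb, chr10:61297586-61297885 on the plus strand for Prf1, and chr7:43436888-43437187 on the plus strand for Nkg7. Each is written 5′ to 3′ in the direction of the gene. Capitals mark matches on either strand to a T-box motif (GGTGTGA), a RUNX motif (TGTGGT) or an ETS motif (AGGAAG), the motifs of factor families known for their use in lymphocytes.
Gzma: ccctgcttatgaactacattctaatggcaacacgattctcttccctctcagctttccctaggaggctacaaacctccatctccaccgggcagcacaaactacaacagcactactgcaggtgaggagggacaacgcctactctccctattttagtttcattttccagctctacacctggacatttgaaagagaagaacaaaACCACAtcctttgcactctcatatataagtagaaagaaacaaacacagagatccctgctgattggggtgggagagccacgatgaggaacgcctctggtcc
Gzmb: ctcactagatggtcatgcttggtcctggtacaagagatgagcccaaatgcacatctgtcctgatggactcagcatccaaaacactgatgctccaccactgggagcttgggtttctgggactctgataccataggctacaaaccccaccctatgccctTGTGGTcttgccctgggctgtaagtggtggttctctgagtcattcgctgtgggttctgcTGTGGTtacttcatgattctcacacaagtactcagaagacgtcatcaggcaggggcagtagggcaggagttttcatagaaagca
Prf1: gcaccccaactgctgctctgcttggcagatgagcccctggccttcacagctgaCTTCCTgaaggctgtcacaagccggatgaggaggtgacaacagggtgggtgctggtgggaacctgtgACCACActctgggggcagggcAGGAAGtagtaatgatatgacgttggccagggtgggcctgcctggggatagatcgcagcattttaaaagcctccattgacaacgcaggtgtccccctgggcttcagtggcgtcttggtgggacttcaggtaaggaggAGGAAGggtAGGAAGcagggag
Nkg7: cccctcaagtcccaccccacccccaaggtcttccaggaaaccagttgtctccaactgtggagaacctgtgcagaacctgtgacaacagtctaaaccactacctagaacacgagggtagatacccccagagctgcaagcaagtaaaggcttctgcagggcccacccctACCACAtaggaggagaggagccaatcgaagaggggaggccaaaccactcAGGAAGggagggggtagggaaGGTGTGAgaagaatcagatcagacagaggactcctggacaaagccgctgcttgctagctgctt

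The RUNX letters were in the windows of 5 of the 6 genes, all but Cd3e, against 16.8% of all 32817 RefSeq promoter windows of the same length. That share and those below are counted by window rather than by gene. In Gzma the match began 50 bases before the start, and in Gzmb the matches began 93 and 34 bases before it. The ETS letters were in the windows of Prf1, Nkg7 and Cd3e, against 35.4% of all windows. The T-box letters were in the window of Nkg7 alone among the 6, beginning 13 bases before the start, against 3.98% of all windows. A match describes these letters and is not a binding site shown by the data.

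The libraries held 10944171 reads (ACE-positive), 12561196 reads (ACE-negative), 13282126 reads (CD74-positive) and 7020232 reads (CD74-negative) on the genes listed. Levels are in CPM, counts per unit of library size after scaling the libraries of a sort to each other, and folds are ratios of CPM, positive over negative, with a 95% interval that covers counting error only. Ace was 105-fold higher in ACE-positive than in ACE-negative cells, and Cd74 was 4.74-fold higher in CD74-positive than in CD74-negative cells. Of 9 macrophage markers, 8 were called higher in ACE-positive cells and 6 in CD74-positive cells, beside 9.46% and 9.08% of all genes that passed. A call means a mean of at least 5 CPM in that sort, a log2 ratio of CPM + 1 of at least 1 in size, and an interval of the fold that excludes 1.

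Granzyme A, a tryptase-like protease of cytotoxic granules, was among the genes with the lowest ratios in both sorts. Gzma (ENSMUSG00000023132, chr13:113093825-113100981, GRCm38) had 3.84 CPM in ACE-positive cells, from 44 reads, and 21.7 CPM in ACE-negative cells, from 260 reads. In the CD74 sort it had 5.57 CPM in CD74-positive cells, from 79 reads, and 31.2 CPM in CD74-negative cells, from 205 reads. Both negative fractions were high and both positive fractions were low. The gene was 5.65-fold lower in ACE-positive cells (95% interval 4.10 to 7.97) and 5.59-fold lower in CD74-positive cells (4.29 to 7.34). By log2 ratio it was 9th from the lowest of the 9656 genes that passed 5 CPM in the ACE sort and 6th from the lowest of 9719 in the CD74 sort. In bulk samples such as these, fewer cells of a type and less RNA per cell cannot be told apart.

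Granzyme B, the granule protease that cuts after aspartate and starts apoptosis, also had its lowest level in ACE-positive cells. Gzmb (ENSMUSG00000015437, chr14:56258838-56262260) had 2.09 CPM in ACE-positive cells, against 10.7 CPM in ACE-negative cells. It had 7.06 CPM in CD74-positive cells, against 16.0 CPM in CD74-negative cells. It was 5.10-fold lower in ACE-positive cells (3.28 to 8.26) and 2.26-fold lower in CD74-positive cells (1.70 to 3.01). Unlike that of Gzma, its ratio in the CD74 sort lay just past the call threshold, at a log2 ratio of -1.07.

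Perforin, the pore-forming partner of the granzymes, was scarce. Prf1 (ENSMUSG00000037202, chr10:61297833-61304680) had 0.698 CPM in ACE-positive cells, from 8 reads, and 3.59 CPM in ACE-negative cells, from 43 reads. It had 1.48 CPM in CD74-positive cells, from 21 reads, and 5.32 CPM in CD74-negative cells, from 35 reads. Its mean was under 5 CPM in both sorts, so no call was made. The intervals of its folds nevertheless lay on the lower side of 1, at 5.14-fold lower in ACE-positive cells (2.39 to 12.7) and 3.59-fold lower in CD74-positive cells (2.03 to 6.49).

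NKG7 is a membrane protein of cytotoxic granules that takes part in their release. Nkg7 (ENSMUSG00000004612, chr7:43437073-43438249) had 8.54 CPM in ACE-positive cells and 25.1 CPM in ACE-negative cells. In the CD74 sort it had 17.8 CPM in CD74-positive cells and 24.6 CPM in CD74-negative cells. The gene was called lower in the ACE sort, at 2.94-fold lower in ACE-positive cells (2.33 to 3.73). It was not called in the CD74 sort, where the fold was 0.722 (0.590 to 0.885), and whether the ratios of the sorts differ was not tested.

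**Figure D1:**
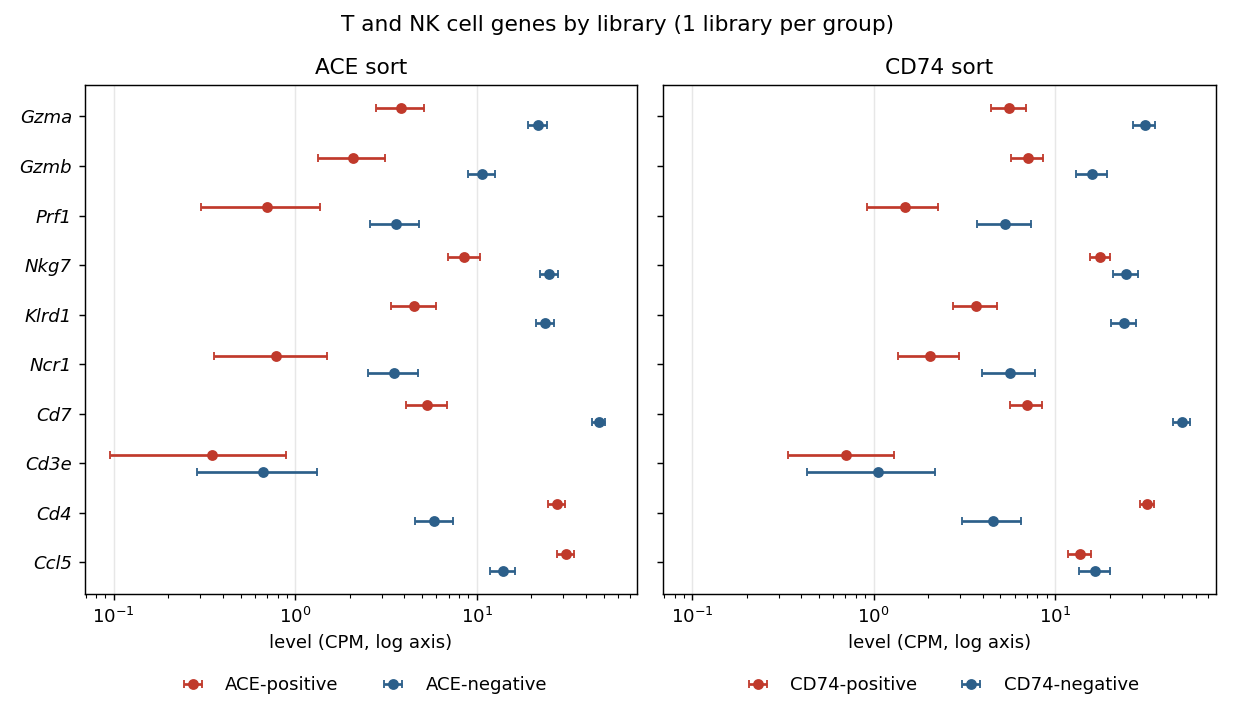
Level of each gene in CPM on a log axis in the ACE sort (left) and the CD74 sort (right), 1 library per group, with exact Poisson 95% intervals that cover counting error only. Gzma, Gzmb, Prf1, Klrd1, Ncr1 and Cd7 lie lower in the positive library of both sorts, Cd4 lies higher, and the intervals of Cd3e overlap in both sorts.

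KLRD1, also known as CD94, pairs with NKG2 chains on NK cells and some T cells and reads the MHC molecule encoded by H2-T23. Klrd1 (ENSMUSG00000030165, chr6:129591782-129598775) had 4.53 CPM in ACE-positive cells and 23.8 CPM in ACE-negative cells. It had 3.67 CPM in CD74-positive cells and 23.9 CPM in CD74-negative cells. It was 5.24-fold lower in ACE-positive cells (3.89 to 7.19) and, by log2 ratio, 4th from the lowest in the CD74 sort, at -2.41. Klrc1, which encodes an inhibitory NKG2 partner, had 2.18 CPM in ACE-positive and 5.51 CPM in ACE-negative cells, and 1.41 CPM in CD74-positive and 5.78 CPM in CD74-negative cells. H2-T23 itself was high in every library, at 349 CPM in ACE-positive, 305 CPM in ACE-negative, 287 CPM in CD74-positive and 299 CPM in CD74-negative cells.

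NCR1, or NKp46, is an activating receptor used to define NK cells. Ncr1 (ENSMUSG00000062524, chr7:4337724-4345164) had 0.785 CPM in ACE-positive cells, from 9 reads, and 3.50 CPM in ACE-negative cells, from 42 reads. It had 2.05 CPM in CD74-positive cells, from 29 reads, and 5.62 CPM in CD74-negative cells, from 37 reads. It stayed under the minimum for a call, and its intervals lay on the lower side of 1 in both sorts, at 4.47-fold lower in ACE-positive cells (2.14 to 10.4) and 2.75-fold lower in CD74-positive cells (1.65 to 4.63).

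CD7 is an immunoglobulin-like receptor of T cells, NK cells and their precursors. Cd7 (ENSMUSG00000025163, chr11:121036747-121039418) had 5.32 CPM in ACE-positive cells, from 61 reads, and 47.2 CPM in ACE-negative cells, from 566 reads. It had 6.98 CPM in CD74-positive cells, from 99 reads, and 50.01 CPM in CD74-negative cells, from 329 reads. It was 8.88-fold lower in ACE-positive cells (6.81 to 11.8), the lowest log2 ratio of the 9656 genes, and 7.16-fold lower in CD74-positive cells (5.70 to 9.06), the 2nd lowest of 9719. The antisense gene Gm11775 shares 122 of its 1133 exonic bases, and since the strand setting of the counting is not given in the sources used here, reads there cannot be assigned to either gene.

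The T cell members did not move together. CD3 epsilon is a signalling chain of the T cell receptor, and Cd3e (ENSMUSG00000032093, chr9:44998740-45009627) was the scarcest member in every library. It had 4 reads in ACE-positive cells, 8 in ACE-negative cells, 10 in CD74-positive cells and 7 in CD74-negative cells. Its fold was 0.523 in the ACE sort (0.115 to 1.95) and 0.663 in the CD74 sort (0.228 to 2.05), so no difference was detectable at this depth. The antisense gene Gm48719 shares 135 of its 4080 exonic bases.

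Cd4 went the other way. Cd4 (ENSMUSG00000023274, chr6:124864692-124888221), the MHC class II co-receptor, had 27.6 CPM in ACE-positive cells, from 316 reads, and 5.84 CPM in ACE-negative cells, from 70 reads. It had 32.2 CPM in CD74-positive cells, from 456 reads, and 4.56 CPM in CD74-negative cells, from 30 reads. Both positive fractions were high and both negative fractions were low. It was 4.72-fold higher in ACE-positive cells (3.63 to 6.20) and 7.05-fold higher in CD74-positive cells (4.87 to 10.6). Among T cell genes with which helper T cells are usually recognised, Cd3d had 0.959 CPM in ACE-positive and 4.00 CPM in ACE-negative cells, and 1.41 CPM in CD74-positive and 6.23 CPM in CD74-negative cells. Cd3d was chosen after its values were seen, and other T cell genes were mixed in the ACE sort. Lck and Thy1 were called lower there, while Cd2 had a fold of 1.83 (1.30 to 2.62) and Il7r a log2 ratio of 0.07. Whether Cd4 moved with T cells was not tested.

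Ccl5 (ENSMUSG00000035042, chr11:83525778-83530518) lay on opposite sides of 1 in the sorts, although after centring by gene length its log2 ratio was above 0 in both, at 1.76 in the ACE sort and 0.59 in the CD74 sort. It had 31.0 CPM in ACE-positive cells, from 355 reads, and 13.9 CPM in ACE-negative cells, from 167 reads. It had 13.7 CPM in CD74-positive cells, from 194 reads, and 16.6 CPM in CD74-negative cells, from 109 reads. It was thus 2.22-fold higher in ACE-positive cells (1.84 to 2.69), while its fold of 0.826 in the CD74 sort had an interval that includes 1 (0.650 to 1.05). Of the chemokine receptors that bind CCL5, Ccr3 was called higher in both sorts, at 3.80-fold in ACE-positive cells and 5.29-fold in CD74-positive cells. Ccr1 had 73.2 CPM in ACE-positive and 170 CPM in ACE-negative cells, and 137 CPM in CD74-positive and 221 CPM in CD74-negative cells.

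Per kilobase of exon, the order of the genes' levels changed between fractions. In ACE-positive cells Ccl5 stood first at 32.2 CPM per kilobase, ahead of Nkg7 at 9.35 and Cd4 at 6.83, and Cd3e was last at 0.0855. In ACE-negative cells Cd7 stood first at 41.7 CPM per kilobase, ahead of Nkg7 at 27.5 and Gzma at 21.6, and Cd4 was 8th at 1.45. In CD74-positive cells Nkg7 led at 19.5 CPM per kilobase, ahead of Ccl5 at 14.3 and Cd4 at 7.98. In CD74-negative cells Cd7 led at 44.1 CPM per kilobase, ahead of Gzma at 31.0 and Nkg7 at 26.9. Neighbours in that order whose counting intervals overlap include Nkg7 and Cd4 in ACE-positive cells, Gzma and Klrd1 in ACE-negative cells, Cd4 and Cd7 in CD74-positive cells, and Gzma and Nkg7 in CD74-negative cells.

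Counted over the members, 7 of the 10 passed the minimum of 5 CPM in each sort, and Prf1, Ncr1 and Cd3e did not. In the ACE sort 5 members were called lower, beside 8.62% of all 9656 genes that passed, and 2 were called higher, beside 9.46%. In the CD74 sort 4 members were called lower, beside 7.73% of 9719 genes, and 1 was called higher, beside 9.08%. The calls lower were Gzma, Gzmb, Nkg7, Klrd1 and Cd7 in the ACE sort and the same genes without Nkg7 in the CD74 sort. The median log2 ratio of the 10 members was -1.44 in the ACE sort and -1.10 in the CD74 sort, beside -0.08 and -0.03 for all genes that passed. The interval of the fold excluded 1 for 9 of the 10 members in the ACE sort, beside 30.6% of all genes on the higher side and 30.6% on the lower side, and for 8 in the CD74 sort, beside 28.4% and 28.2%. Because the members were chosen on these ratios, nothing is read from their counts or medians.

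**Figure D2:**
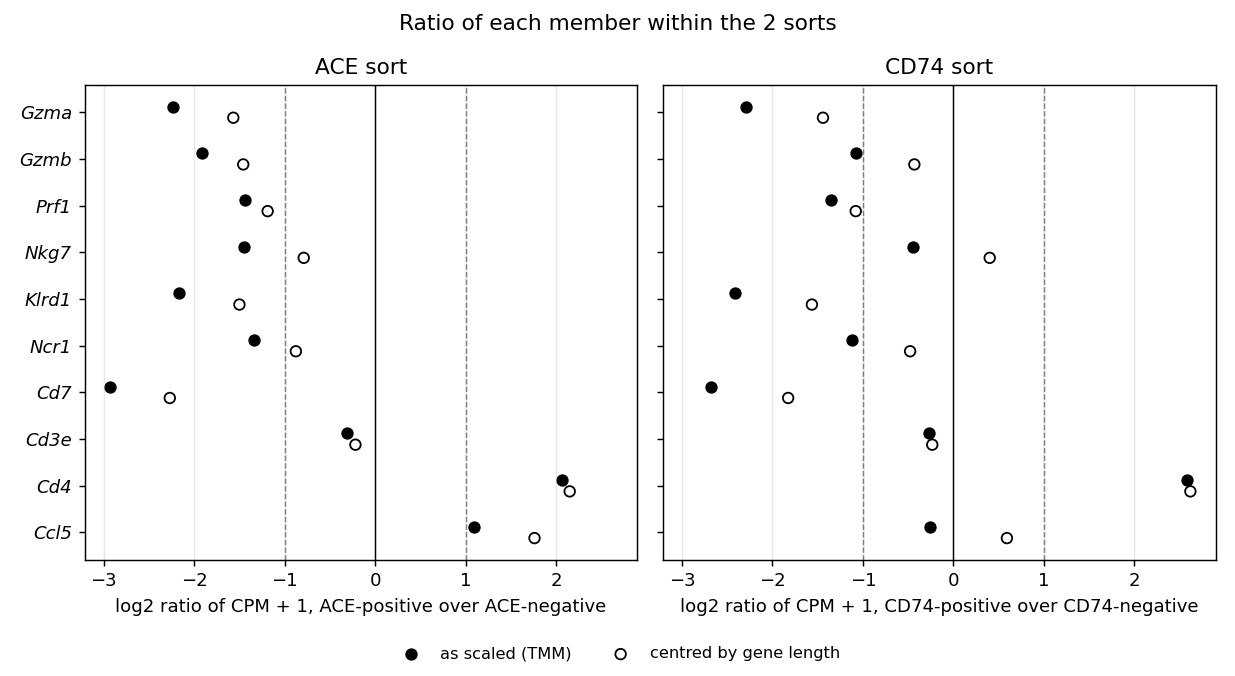
Log2 ratio of CPM + 1, positive over negative, of each gene in the ACE sort (left) and the CD74 sort (right), as scaled (filled) and after subtracting the median of genes of like length (open). Dashed lines mark the call threshold of 1 in size, and in the CD74 sort the filled points of Nkg7 and Ccl5 lie below 0 and the open points above it.

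In both sorts, ratios moved with gene length, and most members are short. The shortest 1931 genes in the ACE sort, of 243 to 2615 exonic bases, had a median log2 ratio of -0.51, and 20.6% of them were called lower. In the CD74 sort the shortest 1944, of 243 to 2611 bases, had a median of -0.62, and 23.9% were called lower. The longest 1932 genes in the ACE sort had a median of 0.35 and the longest 1944 in the CD74 sort a median of 0.47. Of the 7 members that passed, all but Cd4 lie among these shortest genes, with exonic lengths between 914 bases for Nkg7 and 1436 bases for Gzmb. After the median ratio of genes of like length was subtracted, Gzma, Klrd1 and Cd7 were still called lower in both sorts, with log2 ratios of -1.57, -1.50 and -2.27 in the ACE sort and -1.44, -1.56 and -1.83 in the CD74 sort. Gzmb was still called lower in the ACE sort, at -1.46, and not in the CD74 sort, at -0.43. Nkg7 was no longer called in the ACE sort, at -0.79, and its value in the CD74 sort was then 0.40. Cd4 was called higher in both sorts either way, at 2.15 and 2.62 after subtraction, and Ccl5 stayed called higher in the ACE sort. With centring, 5.9% of all genes were called lower and 8.44% higher in the ACE sort, and 4.6% lower and 6.36% higher in the CD74 sort. The part of gene length in these ratios was not tested further.

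**Figure D3:**
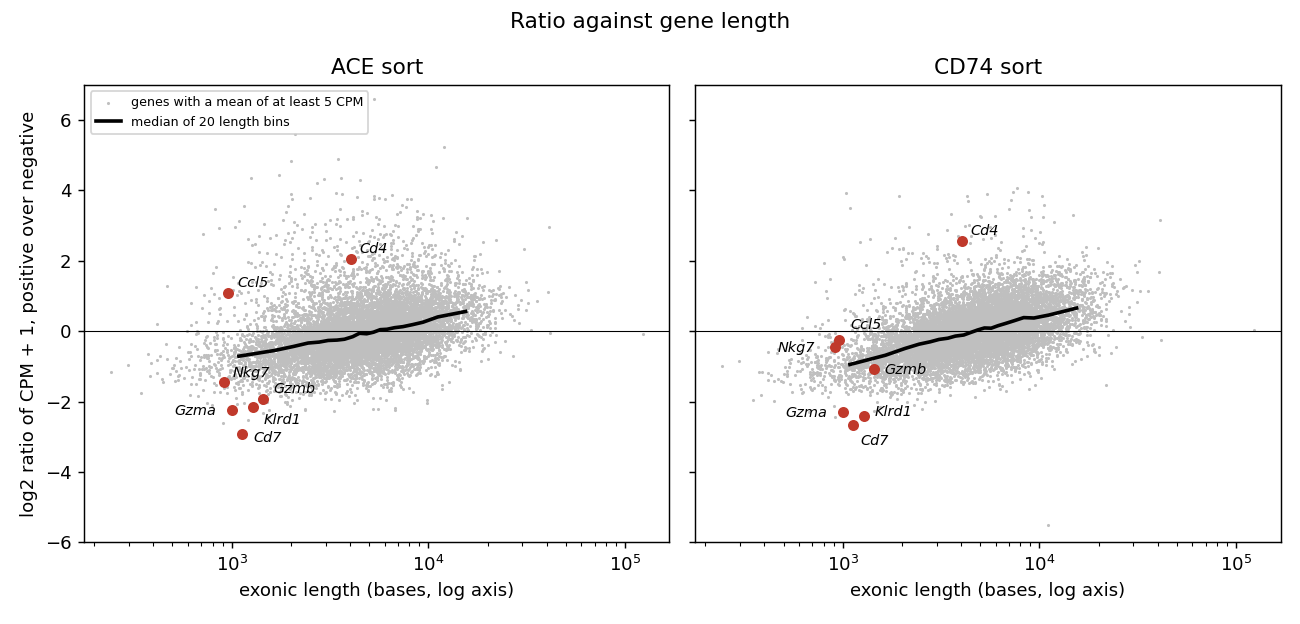
Log2 ratio of CPM + 1, positive over negative, against exonic length in bases on a log axis for genes whose mean reached 5 CPM (grey), with the median of 20 length bins (line) and the members that passed (red). Gzma, Klrd1 and Cd7 lie below the line in both sorts and Cd4 lies above it.

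Beyond the members, 93 genes in 8 lists of lymphocyte genes were followed. Of them, 84 were among the genes listed for the ACE sort and 85 among those for the CD74 sort. In the ACE sort 31 of them passed the minimum, of which 10 were called higher and 6 lower, beside 9.46% and 8.62% of all genes that passed. In the CD74 sort 33 passed, of which 5 were called higher and 4 lower, beside 9.08% and 7.73%. Between 1 and 5 CPM, where no call was made, 34 genes of the lists lay in the ACE sort. The interval of the fold lay below 1 for 20 of these, beside 15.9% of all 1994 genes in that range, and above 1 for 2, beside 40.5%. In the CD74 sort 38 genes of the lists lay in that range, 27 of them with the interval below 1, beside 15.7% of all 1907 genes, and 3 above it, beside 26.1%. After centring by gene length the numbers below 1 were 18 and 23, beside 12.6% and 12.7% of all genes in the range.

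The genes of the T cell receptor complex were low in all libraries. Of 13 genes, 10 were among the genes listed and 2 passed in each sort, with 1 called lower in each. Beside these, 8.62% of all genes that passed were called lower in the ACE sort and 7.73% in the CD74 sort. Trac, Trbc1 and Trbc2 were not among the genes listed, so their levels are not known here. Ubash3a, a regulator of T cell receptor signalling and the other gene that passed, had folds of 0.981 in the ACE sort and 0.609 in the CD74 sort. The summed level of the 10 genes was 15.4 CPM in ACE-positive and 36.5 CPM in ACE-negative cells, and 22.4 CPM in CD74-positive and 62.8 CPM in CD74-negative cells. Lck, the kinase that starts T cell receptor signalling, was called lower in both sorts, at 2.54-fold lower in ACE-positive cells (1.74 to 3.80) and 4.85-fold lower in CD74-positive cells (3.42 to 6.96). Its call in the ACE sort was lost after centring by gene length and with a pseudocount of 5 CPM. Zap70, the kinase that binds the CD3 chains, had 0.436 CPM in ACE-positive and 4.59 CPM in ACE-negative cells, and 0.353 CPM in CD74-positive and 4.10 CPM in CD74-negative cells.

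Surface receptors of T cells were mixed. Of 12 genes, 3 passed in the ACE sort, with 1 called lower, and 4 passed in the CD74 sort, with 2 called lower. Beside these, 8.62% and 7.73% of all genes that passed were called lower. Thy1, a surface glycoprotein of mouse T cells, was 5.05-fold lower in ACE-positive cells and 2.45-fold lower in CD74-positive cells, called in both. Its call in the CD74 sort was lost after centring by gene length, under plain library totals and with a pseudocount of 5 CPM. Cd2, an adhesion receptor, was called lower in CD74-positive cells, at 4.35-fold lower, and had a fold of 1.83 in the ACE sort. Il7r, the interleukin 7 receptor, had 5.75 CPM in ACE-positive and 5.42 CPM in ACE-negative cells, and 9.45 CPM in CD74-positive and 16.1 CPM in CD74-negative cells. Of the 6 T cell transcription factors none passed the minimum in either sort; Tcf7 had the highest mean, with 2.62 CPM in ACE-positive and 2.92 CPM in ACE-negative cells, and 2.40 CPM in CD74-positive and 6.08 CPM in CD74-negative cells.

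Most receptors of NK cells lay in the low range, and most of these were lower in the positive fractions. Of 20 genes, 12 lay between 1 and 5 CPM in the ACE sort. The interval lay below 1 for 9 of these and above 1 for 0, beside 15.9% and 40.5% of all genes there. In the CD74 sort 14 lay in that range, 12 of them below 1 and 0 above it, beside 15.7% and 26.1%. Klrb1c, which encodes the NK1.1 antigen, had 0.698 CPM in ACE-positive and 4.25 CPM in ACE-negative cells, and 1.62 CPM in CD74-positive and 5.47 CPM in CD74-negative cells. Of the 4 genes of the list that passed, the ACE sort had 2 higher calls and 1 lower call, and the CD74 sort had 0 calls. Klrb1f was called lower in ACE-positive cells, at 4.16-fold lower, and had a fold of 0.582 in the CD74 sort. Klrk1, which encodes the activating receptor NKG2D, had folds of 0.861 and 0.805. Cd244a, a receptor of the SLAM family also found on myeloid cells, was called higher in ACE-positive cells, at 2.76-fold, and had a fold of 1.31 in the CD74 sort. Sh2d1b1, an adaptor that binds such SLAM receptors, was called higher in ACE-positive cells, at 2.16-fold, and had a fold of 0.710 in the CD74 sort. The NK receptor genes of the Klra family are near copies of each other, so reads may have been shared among them by the counting.

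**Figure D4:**
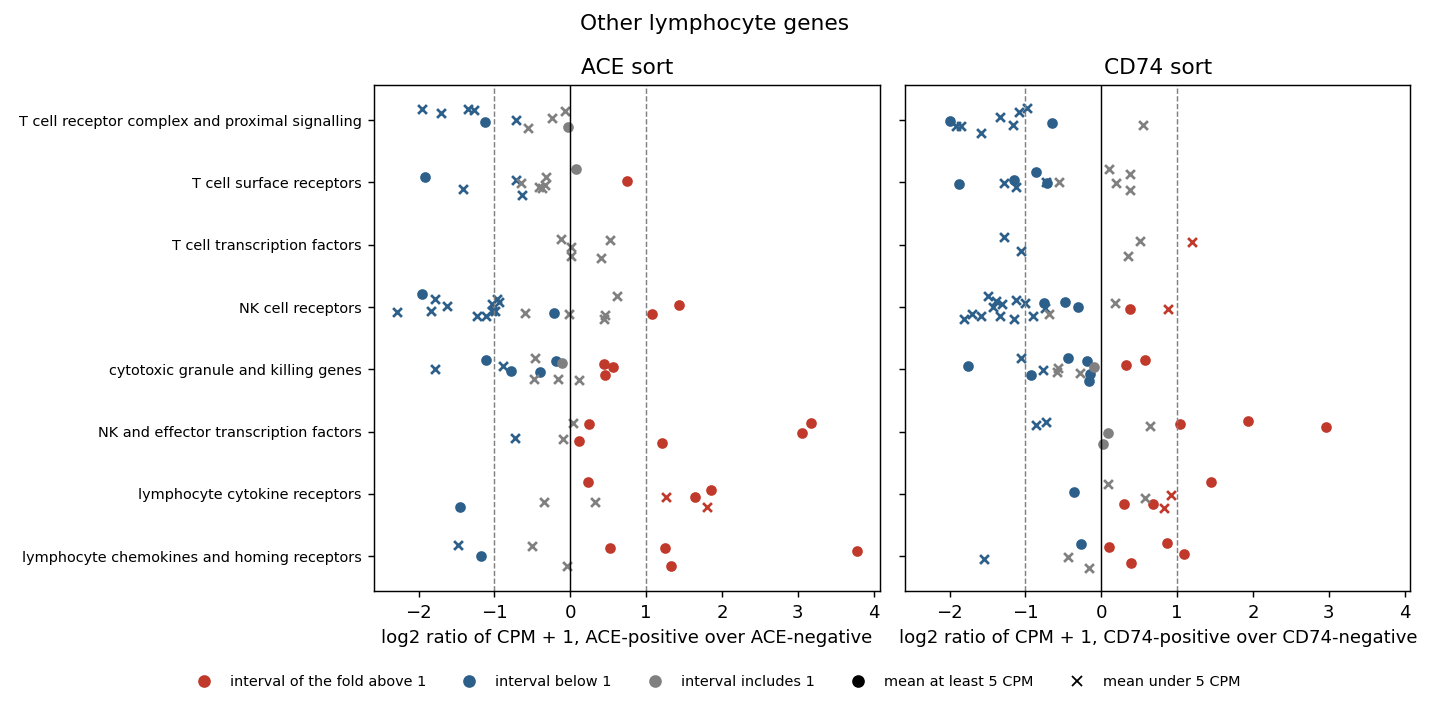
Log2 ratio of CPM + 1, positive over negative, of the genes of 8 lymphocyte lists in the ACE sort (left) and the CD74 sort (right), each point 1 gene, circles for means of at least 5 CPM and crosses for lower means, coloured by the interval of the fold. Crosses of the T cell receptor and NK receptor lists lie mostly below 0, and circles of the transcription factor, cytokine receptor and chemokine lists mostly above it.

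Other granule and killing genes covered a wide range of levels. Of 18 genes, 8 passed in the ACE sort and 9 in the CD74 sort, with 0 called higher and 1 called lower in each. Among all genes that passed, 8.62% and 7.73% were called lower, and 9.46% and 9.08% higher. Cst7, the granule protease inhibitor cystatin F, was called lower in ACE-positive cells, at 2.23-fold lower, a call that was lost after centring by gene length, under plain library totals and with a pseudocount of 5 CPM. Ctsw, a cathepsin of NK and cytotoxic T cells, was called lower in CD74-positive cells, at 4.37-fold lower, and had a mean too low for a call in the ACE sort, with 1.13 CPM in ACE-positive and 6.34 CPM in ACE-negative cells. Genes of the granule machinery that many blood cells share stood far above the members. Lamp1, a lysosomal membrane protein, had 965 CPM in ACE-positive and 1098 CPM in ACE-negative cells, and 925 CPM in CD74-positive and 1035 CPM in CD74-negative cells. Srgn, the granule proteoglycan serglycin, had folds of 1.38 and 0.740. Ctsc, the protease that activates granzymes, had folds of 0.922 and 1.25.

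The transcription factors named for NK and effector cells included genes far higher in the positive fractions. Of 8 genes, 5 passed in each sort, 3 were called higher in each and 0 lower. Of all genes that passed, 9.46% were called higher in the ACE sort and 9.08% in the CD74 sort. Prdm1, which encodes Blimp-1, was called higher at 10.7-fold in ACE-positive cells and 10.8-fold in CD74-positive cells. Ikzf3, which encodes Aiolos, was called higher at 10.5-fold and 4.29-fold. The third was Runx3, at 2.38-fold and 2.12-fold, and its call in the CD74 sort was lost after centring by gene length. Tbx21 and Eomes, which encode the T-box factors of NK cells, were under 3 CPM in all libraries.

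Cytokine receptors and homing genes also held genes higher in the positive fractions. Il2rg, the common gamma chain, was called higher in ACE-positive cells, at 3.21-fold, and had a fold of 1.63 in the CD74 sort. Il21r was called higher in both, at 3.94-fold in ACE-positive cells and 2.93-fold in CD74-positive cells. Il2rb, the beta chain used by NK cells for IL-2 and IL-15, was called lower in ACE-positive cells, with 4.01 CPM in ACE-positive and 12.7 CPM in ACE-negative cells. It was not called in the CD74 sort, where 0 genes of the cytokine receptor list were called lower. S1pr5, a sphingosine-phosphate receptor of NK cells and patrolling monocytes, was called higher in ACE-positive cells, at 15.6-fold, and had a fold of 1.89 in the CD74 sort. S1pr1 was called higher in both sorts, at 2.73-fold and 2.33-fold, and lost both calls with a pseudocount of 5 CPM. Ccl4, a chemokine of activated lymphocytes and macrophages, was called higher in ACE-positive cells, with 185 CPM in ACE-positive and 76.9 CPM in ACE-negative cells. It was not called in the CD74 sort.

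Marker lists of several other cell types also differed between the fractions, some higher and some lower in the positive ones. Macrophage markers summed to 3809 CPM in ACE-positive and 1156 CPM in ACE-negative cells, and to 2670 CPM in CD74-positive and 1017 CPM in CD74-negative cells. Nonclassical monocyte markers summed to 4525 CPM in ACE-positive and 1277 CPM in ACE-negative cells, and to 2219 CPM in CD74-positive and 1215 CPM in CD74-negative cells. Both lists were thus higher in the positive fractions, as Cd4 was. Neutrophil markers summed to 11300 CPM in ACE-positive and 16544 CPM in ACE-negative cells, and to 13949 CPM in CD74-positive and 28099 CPM in CD74-negative cells, with 3 and 4 of 10 called lower, or 1 and 0 after centring by gene length. Conventional dendritic cell markers summed to 576 CPM in ACE-positive and 816 CPM in ACE-negative cells, and to 558 CPM in CD74-positive and 1110 CPM in CD74-negative cells. The highest level of a single gene of that list was 450 CPM in the ACE sort and 736 CPM in the CD74 sort. Of the 12 genes, 3 and 4 were called lower and 1 and 0 higher. After centring 2 and 3 were called lower and 1 and 1 higher. Itgae of that list had 0 reads in CD74-negative cells. The plasmacytoid dendritic cell marker Siglech was called lower in both sorts, at 3.70-fold lower in ACE-positive cells and 3.05-fold lower in CD74-positive cells, while that list had 1 and 3 of 10 genes called lower, or 1 and 2 after centring. Of 6 dividing cell markers, 5 were called lower in ACE-positive and 2 in CD74-positive cells, or 6 and 1 after centring. Beside these counts, 8.62% of all genes that passed were called lower in the ACE sort and 7.73% in the CD74 sort. After centring these shares were 5.9% and 4.6%. Called higher were 9.46% and 9.08%, or 8.44% and 6.36% after centring. The part of these cell types in the ratios of the T and NK cell genes was not tested.

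B cell and basophil markers did not move alike in the sorts. B cell markers summed to 156 CPM in ACE-positive and 84.5 CPM in ACE-negative cells, and to 139 CPM in CD74-positive and 191 CPM in CD74-negative cells. Of the 5 measured genes, 3 and 1 were called higher, beside 9.46% and 9.08% of all genes that passed. Basophil and mast cell markers summed to 202 CPM in ACE-positive and 292 CPM in ACE-negative cells, and to 901 CPM in CD74-positive and 276 CPM in CD74-negative cells. Markers of group 2 innate lymphoid cells were near the floor, summing to 12.7 CPM in ACE-positive and 12.2 CPM in ACE-negative cells, and to 17.7 CPM in CD74-positive and 14.1 CPM in CD74-negative cells.

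The genes most like a member were those nearest by distance over its log2 ratios in the 2 sorts, among 9533 genes whose mean reached 5 CPM in both. Nearest to Gzma were Lmo1, a LIM-domain transcription regulator, at a distance of 0.14, Klrd1, at 0.14, and Rpl39, a ribosomal protein gene, at 0.19. Nearest to Cd7 were Lgals1, which encodes galectin 1, at 0.63, Gzma, at 0.80, and Klrd1, at 0.81, so Cd7 stood farther from its neighbours than Gzma did. Nearest to Cd4 were Igf1, the insulin-like growth factor gene, at 0.14, Spon1, at 0.15, and Fcna, at 0.20. Fcna, which encodes a ficolin made by macrophages, had 56.8 CPM in ACE-positive and 11.1 CPM in ACE-negative cells, and 47.3 CPM in CD74-positive and 6.84 CPM in CD74-negative cells. Likeness over 2 ratios from 4 libraries describes these libraries and says nothing of shared function.

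The authors' deposited table lists p-values from their own comparison, and none of the 10 members reached an adjusted p under 0.05 in either sort. In the authors' deposited table, 22 of 14939 genes in the ACE sort and 1 of 14943 genes in the CD74 sort did so. Cd7 had the smallest unadjusted p-value among the members in both sorts, 0.00182 in the ACE sort and 0.00374 in the CD74 sort, per the authors' deposited table. Gzma, Klrd1 and Cd4 were the other members with an unadjusted p under 0.05 in the authors' deposited table, in both sorts. The share of all genes under it was 2.66% in the ACE sort and 1.43% in the CD74 sort of the authors' deposited table.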

How the data were processed

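Total RNA of sorted cells was made into TruSeq libraries, per the labels' protocols, and HISAT2 and GRCm38 are named in the submitters' processing notes. The counting program, whether it used strand, the annotation and the authors' test are not given in the sources here. For each sort the authors deposited 1 table, or 2 tables in all, each with a size-factor-normalised signal for its 2 libraries. The deposited tables also hold the authors' linear fold (a ratio) with its log2 value and p-values before and after adjustment, per the file headers. Columns of single libraries left unused numbered 0. The labels of the CD74 samples name their table differently, so its columns were assigned from the header.

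Within each library the deposited signal values were whole multiples of what 1 read is worth, for 100% of values (tolerance 0.001 reads), and these reads were recovered. The design assumed such reads. edgeR's quasi-likelihood test could not be fitted, with 0 residual degrees of freedom, and no p-value was computed. The tables were scaled separately, so no level was tested across them. Reads were scaled by TMM (edgeR 4.0.16, R 4.3.3), and the log2 ratio used a pseudocount of 1 CPM, which understates the change of low genes. Rows sharing a symbol were represented by the row with the highest mean. Intervals are exact conditional binomial intervals for folds and exact Poisson intervals for levels (scipy 1.17.1, 95%). They cover counting error only, and reads without molecular identifiers are not independent molecules. Exonic lengths came from GENCODE M21, which held 99.9% of the identifiers. For centring, the median log2 ratio of 20 bins of gene length was subtracted. The scripts were tested on simulated data. Alternatives were other scalings, pseudocounts, minimum levels, length centring and summed symbols.

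Named genes were the 10 members, from each list the 2 with the highest mean level and the 2 with the largest ratio among those with a mean of at least 5 CPM, the 3 nearest to Gzma, Cd7 and Cd4, and the sorting markers. The members and lists were chosen with earlier results of these data known. Klrc1, H2-T23, Ccr1, Cd3d, Zap70, Klrb1c, Runx3, Tbx21, Eomes, Il2rb, Ccl4, Itgae, Ms4a2, Cpa3 and Sh2d1b1 fall outside that rule and were chosen after their values were seen. Some genes that the rule names are not reported here.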

Additional observations from a re-analysis of the deposited data

Results flagged for a closer look

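Some genes lay on opposite sides of 1 in the sorts, with folds given as positive over negative, and in each case the difference between the sorts was not tested. Ccl5, the chemokine among the members, had folds of 2.22 in the ACE sort and 0.826 in the CD74 sort. Its interval in the CD74 sort included 1 (0.650 to 1.05). After centring by gene length its log2 ratio there was 0.59, with an interval of the fold above 1 (1.17 to 1.90). Cd2 had folds of 1.83 in the ACE sort and 0.230 in the CD74 sort. Sh2d1b1, which encodes a signalling adaptor of NK cells and antigen-presenting cells, had folds of 2.16 in the ACE sort and 0.710 in the CD74 sort. After centring, log2 ratios in the CD74 sort were -1.23 for Cd2 and -0.14 for Sh2d1b1.

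Of the 6 basophil and mast cell genes that passed 5 CPM in the ACE sort, 4 lay below 1 in the ACE sort and were called higher in the CD74 sort, with intervals that exclude 1 in both, while Hdc, the histamine-forming enzyme of the same list, had folds of 1.53 in the ACE sort and 1.33 in the CD74 sort. In the CD74 sort 9.08% of all genes that passed were called higher. After centring by gene length, Ms4a2 alone of the list was called lower in the ACE sort, beside 5.9% of all genes that passed. Mcpt8, a basophil protease, had folds of 0.459 in the ACE sort and 4.40 in the CD74 sort. Prss34, another basophil protease, had folds of 0.508 and 5.90 in the same order. Ms4a2, the beta chain of the IgE receptor, had folds of 0.259 in the ACE sort and 2.45 in the CD74 sort. Cpa3, a mast cell carboxypeptidase, had folds of 0.411 in the ACE sort and 2.83 in the CD74 sort. Centred log2 ratios in the ACE sort were -0.43 for Mcpt8, -0.30 for Prss34, -1.50 for Ms4a2 and -0.77 for Cpa3.

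Among B cell genes, Cd79a, a chain of the B cell receptor, had folds of 2.07 in the ACE sort and 0.549 in the CD74 sort. Ms4a1, which encodes CD20, had folds of 2.72 in the ACE sort and 0.507 in the CD74 sort. Neither gene was called in the CD74 sort as scaled. The B cell list had 1 gene called higher there and 0 called lower, beside 9.08% and 7.73% of all genes that passed. After centring by gene length, the log2 ratios in the CD74 sort were -0.20 for Cd79a and -1.03 for Ms4a1. The list then had 1 gene called higher and 1 called lower there, beside 6.36% and 4.6% of all genes that passed.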

How the results depend on the processing

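With 1 library per group nothing could be left out, and the intervals hold no variation between animals. No paired analysis was possible because each group has 1 library and the labels give no replicate numbers. No member turned its called direction under any of the 9 alternatives. Centring by gene length moved the members' median log2 ratio to -1.03 in the ACE sort and -0.46 in the CD74 sort, and a pseudocount of 5 CPM moved it to -0.87 and -0.63, while a pseudocount of 0.1 CPM moved it to -2.12 and -1.29. The pseudocount of 5 CPM left 1 member called higher in the ACE sort, where Ccl5 lost its call, 3 lymphocyte list genes called lower in the ACE sort and 3 called higher in the CD74 sort. Without a minimum level, 33 lymphocyte list genes were called in each sort, 21 of them lower in the ACE sort and 27 in the CD74 sort, and Prf1 and Ncr1 were called lower in both sorts. Among all genes, 970 were then called lower and 1518 higher of 14935 in the ACE sort, and 894 and 1288 of 14938 in the CD74 sort. With a minimum of 10 CPM, 3 list genes were called lower in the ACE sort, 1 was called lower in the CD74 sort, where 5 were called in all, and Gzmb lost its call in the ACE sort. Of all genes, 742 of 8562 were then called lower in the ACE sort, and 668 of 8625 lower and 757 higher in the CD74 sort. Gzmb also lost its call in the CD74 sort under centring, plain totals, totals without the 50 most abundant genes and a pseudocount of 5 CPM. Plain totals shifted all genes, at their median log2 ratio, by 0.13 in the ACE sort and 0.18 in the CD74 sort, and the share of calls that were higher was then 67.2% and 74.8%, against 52.3% and 54.0% with TMM. Totals without the 50 most abundant genes gave shares of 62.6% and 67.2%. The count of all genes called lower was 565 in the ACE sort and 434 in the CD74 sort under plain totals. It was 447 under centring in the CD74 sort and 509 there with a pseudocount of 5 CPM, and 1518 genes were called higher in the ACE sort without a minimum. Causes were not tested.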
